A study of Mus musculus with 6 samples.

Results

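The genes described here encode laminins, integrins and their basement membrane partners in primary neural stem cells of mouse embryos at stage E13.5, grown as neurospheres, which are floating clusters of dividing progenitors. They were chosen by symbol: every laminin chain, every integrin chain whose symbol ends in a number or is Itgav, both nidogens, perlecan (Hspg2), agrin (Agrn), dystroglycan (Dag1) and fibronectin (Fn1). The rule found 37 of 24421 rows of the count table, of which 35 had at least 1 read in some library and 21 passed the filter on low counts. Integrin chains of white blood cells whose symbols end in a letter were not among them.

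The compared groups were Pml knockout cells (Pml-/-, 3 libraries) and WT cells (3 libraries). The protein that Pml encodes, promyelocytic leukemia protein, organises nuclear bodies, and the series title asks how its loss affects differentiation, stress tolerance and mitochondria in neural stem cells. Both groups grew in medium with epidermal growth factor and fibroblast growth factor 2 at 20 ng/ml each and 20% oxygen, and were lysed on day 4 after dissociation. The labels give neither the allele, the sex of the embryos nor whether replicates came from separate embryos or cultures, so the p-values rest on a spread among these 6 samples that may be only technical. All 6 carry 1 batch date.

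Laminins are cross-shaped trimers of 1 alpha, 1 beta and 1 gamma chain that assemble into sheets on cell surfaces. Nidogens and perlecan tie laminin sheets to the collagen network of a basement membrane, and integrins and dystroglycan anchor cells to it. In the embryonic brain, radial glial stem cells rest their end feet on the basement membrane below the meninges. Stem cell niches of the brain are also rich in laminin, and integrins of these cells bind it.

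The libraries were made with a kit that reads the 3′ end of polyadenylated transcripts, so counts are not divided by length and a CPM value (reads scaled to library size, with a TMM factor) stands for transcripts rather than transcript bases. Total counts were 5917505, 4980638 and 5596862 in knockout replicates 1, 2 and 3, against 4413318, 1775152 and 3934519 in WT replicates 1, 2 and 3. The row for 45S pre-ribosomal RNA took 14.6% to 17.6% of the knockout counts, against 41.9%, 39.8% and 19.6% in WT replicates 1, 2 and 3. Hepatocyte marker genes, 20 in the table, summed to 86.1 to 119 CPM in knockout libraries, against 529, 890 and 167 CPM in WT replicates 1, 2 and 3. WT replicates 1 and 2 thus stood apart from the other 4 libraries, and values without them are given where they bear on a result. Pml itself had 14, 23 and 5 reads in knockout replicates 1, 2 and 3, against 36, 35 and 44 in WT replicates 1, 2 and 3, lower in each knockout library (log2 fold change -2.81, SE 0.661, edgeR adjusted p 0.197, and 0.00302 in the authors' deposited table). The 12 neural stem cell markers summed to 7708 to 9395 CPM in knockout libraries and 6293 to 8708 CPM in WT libraries, so their sum was high in both genotypes. Single markers varied: of 11 tested, 7 had a higher and 4 a lower fitted level in the knockout. Fabp7 had 1456 ± 726 CPM in knockout cells and 378 ± 318 CPM in WT cells, and Msi1 had 15 reads over all libraries. Sums were also high for astrocyte markers (600 to 1751 CPM), oligodendrocyte lineage markers (1192 to 2107 CPM) and neuron markers (809 to 1085 CPM). Most of the neuron sum came from Map2 and Gap43.

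No laminin, integrin or basement membrane gene passed at an adjusted p under 0.05 by edgeR's quasi-likelihood test, in either direction (0 of 21, against 0.00884% of all 11317 tested genes higher and 0% lower). By DESeq2 0 of 21 passed as well, against 0.928% of genes higher and 1.97% lower, and by edgeR's exact test 0 of 21, against 1.30% higher and 1.86% lower. Of the 25 members with an adjusted p in the authors' deposited table, 0 passed, against 1.13% of genes higher and 1.81% lower. Among the 21 tested genes, the largest fitted differences without overlap between the genotypes were in Hspg2 and Lama5, both higher in all 3 knockout libraries. Agrn, Dag1 and Lamc1 were also higher in every knockout library than in any WT library. Libraries therefore did not overlap for 5 of 21 genes in the higher direction (background 12.3%) and for 0 in the lower direction (background 11.3%). At an unadjusted p under 0.05 there were 3 higher genes, Lama5, Hspg2 and Fn1 (background 6.70%), and 1 lower gene, Itga4 (background 9.19%). In bulk RNA, fewer cells of a type and less RNA per cell cannot be told apart.

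**Figure D1:**
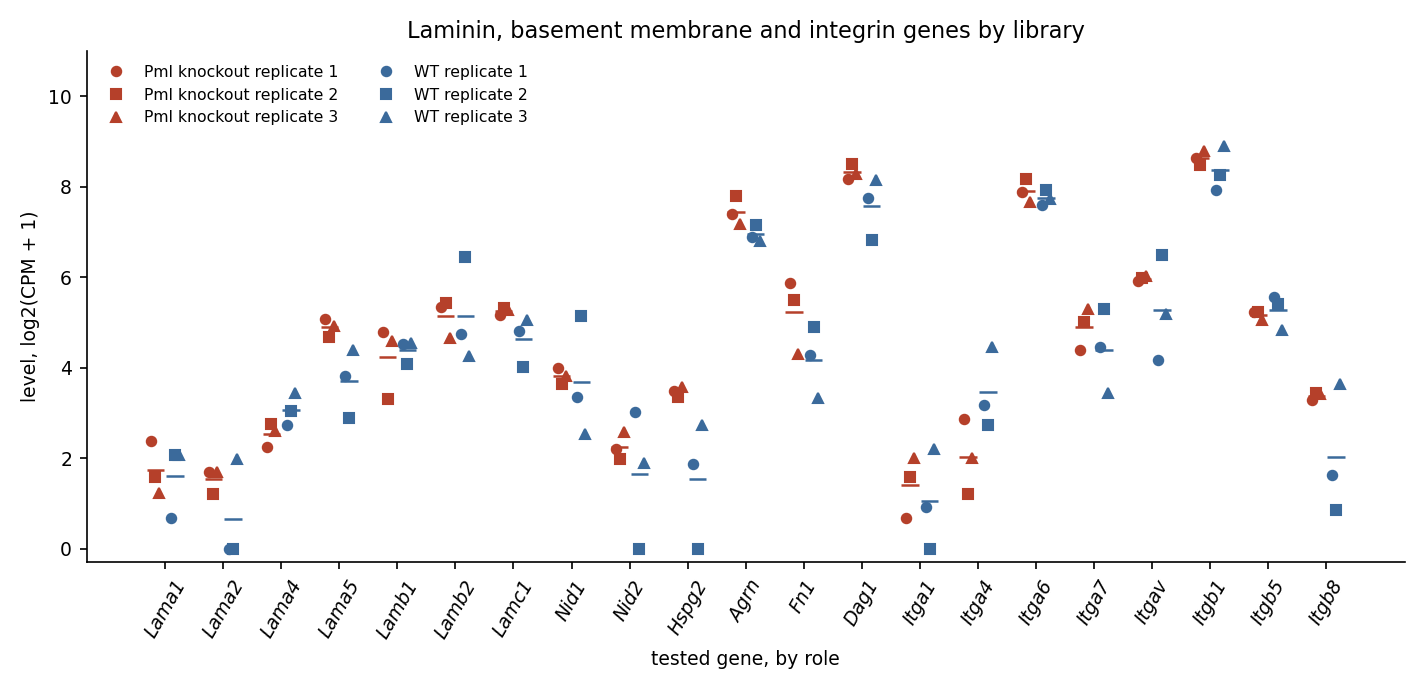
Levels of the 21 tested genes in each library, as log2(CPM + 1), with knockout libraries left of WT libraries for each gene and a bar at the mean of 3 libraries. Agrn, Dag1, Hspg2, Lama5 and Lamc1 are the genes whose knockout points all lie above the WT points; Itgb1, Dag1 and Itga6 have the highest levels.

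Sequence upstream of the genes whose libraries did not overlap is shown because these are the members that stand out; Agrn, Dag1, Hspg2 and Lama5 were matched in the RefSeq promoter table (build GRCm38.p6). Each run ends just before the transcript start and reads 5′ to 3′ on the gene's strand; that of Hspg2 stops before the earlier start in GENCODE M21. Capitals mark GC boxes (GGGCGG, or CCGCCC on the other strand, overlaps counted) and the CCAAT box (CCAAT, or ATTGG on the other strand). The regions are chr2:180225860-180226109 on the minus strand for Lama5, chr4:137468553-137468768 on the plus strand for Hspg2, chr4:156197489-156197738 on the minus strand for Agrn and chr9:108263959-108264208 on the minus strand for Dag1.
Lama5: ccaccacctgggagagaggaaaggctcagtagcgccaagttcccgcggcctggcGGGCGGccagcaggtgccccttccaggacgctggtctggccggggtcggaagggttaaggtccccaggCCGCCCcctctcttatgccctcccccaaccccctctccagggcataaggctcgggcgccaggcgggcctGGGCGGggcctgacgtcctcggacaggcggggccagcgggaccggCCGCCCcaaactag
Hspg2: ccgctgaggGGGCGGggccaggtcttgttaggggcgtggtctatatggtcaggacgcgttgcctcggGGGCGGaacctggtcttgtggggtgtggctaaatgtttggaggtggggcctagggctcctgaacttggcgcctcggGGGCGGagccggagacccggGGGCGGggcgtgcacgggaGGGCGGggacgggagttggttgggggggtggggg
Agrn: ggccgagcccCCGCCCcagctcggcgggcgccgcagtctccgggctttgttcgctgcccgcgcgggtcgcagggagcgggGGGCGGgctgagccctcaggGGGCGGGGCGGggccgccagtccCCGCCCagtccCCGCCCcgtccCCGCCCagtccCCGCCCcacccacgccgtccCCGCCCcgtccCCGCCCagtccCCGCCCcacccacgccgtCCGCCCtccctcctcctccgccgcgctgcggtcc
Dag1: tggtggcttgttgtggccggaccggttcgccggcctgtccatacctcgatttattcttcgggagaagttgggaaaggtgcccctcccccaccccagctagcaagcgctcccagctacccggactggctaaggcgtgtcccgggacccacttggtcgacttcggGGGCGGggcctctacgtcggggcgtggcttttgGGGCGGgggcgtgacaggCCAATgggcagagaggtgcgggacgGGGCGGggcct

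The printed stretches held 4 GC boxes in Lama5, 5 in Hspg2, 12 in Agrn and 3 in Dag1, and Dag1 also held 1 CCAAT box. In Agrn many of them recur in a short repeated stretch. Of 14 tested members matched in the table, 64.3% had a GC box in the 250 bases before the start, beside 62.0% of 8699 tested genes and 32.9% of all 27025 promoters. A CCAAT box was in 28.6% of these 14, against 37.3% of tested genes, and a TATA box (TATAAA, or TTTATA on the other strand) in 0 of 14, against 5.74%. The median GC content of these 14 windows was 64.4%, against 60.8% for tested genes. The windows of the members therefore carried GC boxes about as often as those of other tested genes.

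Among laminin alpha chains, Lama5 had the most reads in 5 of 6 libraries, the exception being WT replicate 2 with 8 reads of Lama5 and 9 of Lama4, and the largest fitted difference between the genotypes. Lama5 (ENSMUSG00000015647.9, chromosome 2, 180176373 to 180225859, minus strand, GRCm38) encodes the alpha chain of the laminins found in most mature basement membranes. It had 217, 150 and 195 reads in knockout replicates 1, 2 and 3, against 44, 8 and 88 in WT replicates 1, 2 and 3. All knockout libraries lay above all WT libraries. The mean level was 28.8 ± 3.96 CPM in knockout cells and 13.2 ± 6.79 CPM in WT cells (SD, n = 3 each). The log2 fold change was 1.07 (SE 0.395, edgeR adjusted p 0.247). With WT replicates 1 and 2 both left out the log2 fold change was 0.53. Without WT replicate 3 it was 1.48 (edgeR adjusted p 0.0346), in a fit where 1526 of all genes passed.

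Lama4, whose chain is typical of blood vessel laminins, had a lower fitted level, with 25, 35 and 34 reads in knockout replicates 1, 2 and 3, against 19, 9 and 43 in WT replicates 1, 2 and 3. The level was 4.87 ± 1.02 CPM in knockout cells and 7.54 ± 2.07 CPM in WT cells, a log2 fold change of -0.64 (SE 0.464, edgeR adjusted p 0.511), and the libraries overlapped narrowly. Lama2, the alpha chain of muscle and nerve laminin, had 15, 8 and 15 reads in the knockout libraries, against 0, 0 and 13 in the WT libraries, so its log2 fold change of 0.63 had an SE of 1.03. Lama1, the alpha chain of the earliest embryonic laminin, had 28, 12 and 9 reads, against 2, 4 and 14. Lama3, of epithelial laminin, had 0 reads in the knockout libraries and 4 reads in WT replicate 1 alone.

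Lama5 took a larger share of laminin alpha chain reads in the knockout. The share was 76.1% (95% exact interval 70.8 to 81.0), 73.2% (66.6 to 79.1) and 77.1% (71.4 to 82.1) in knockout replicates 1, 2 and 3. It was 63.8% (51.3 to 75.01), 38.1% (18.1 to 61.6) and 55.7% (47.6 to 63.6) in WT replicates 1, 2 and 3. Shares of the genotypes did not overlap, though the interval of WT replicate 1 reached into those of the knockout libraries. Lama4 took 8.77% to 17.1% in knockout libraries and 27.2% to 42.9% in WT libraries, and here too the ranges were apart. The interval of knockout replicate 2, 12.2 to 22.9, still reached into those of the WT libraries, which began at 17.5, 21.8 and 20.45. That of knockout replicate 3, 9.49 to 18.3, reached into the interval of WT replicate 1. Shares within a class are tied to each other, so those of Lama4 and Lama5 are not independent. The shares rest on 285, 205 and 253 alpha chain reads in the knockout libraries and only 69, 21 and 158 in the WT libraries; intervals cover counting error only, and no test was made since the shares were picked after their values were seen.

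**Figure D2:**
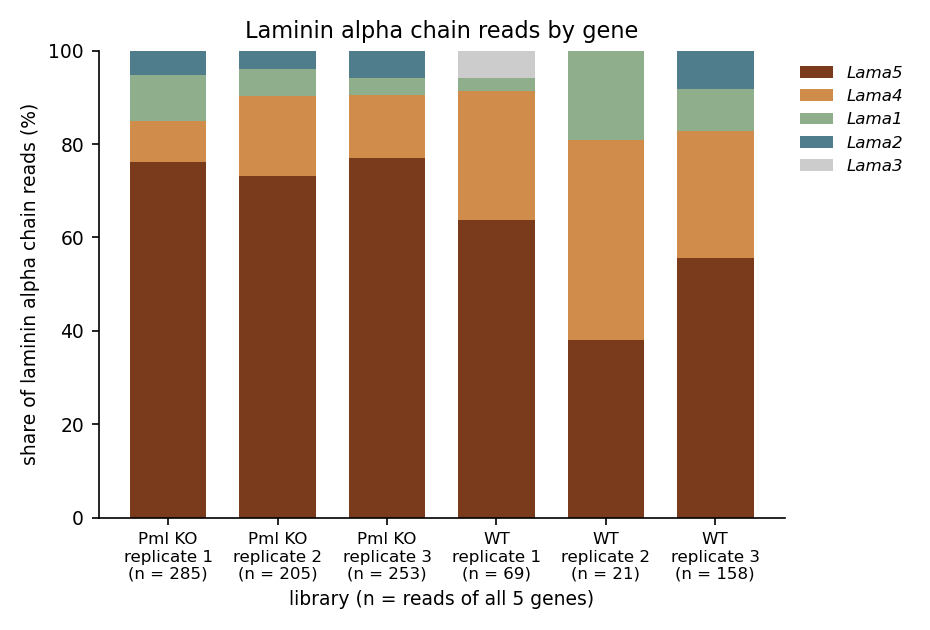
Share of laminin alpha chain reads by gene in each library, in percent, as stacked bars with the number of reads under each. Lama5 makes up 73.2% to 77.1% in the knockout libraries and 38.1% to 63.8% in the WT libraries.

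Of the gamma chains, Lamc1, the partner in most laminins, supplied nearly all reads, and Lamc3 had 1 read in all libraries together. Lamc1 (ENSMUSG00000026478.14, chromosome 1, 153218922 to 153332786, minus strand of GRCm38) had 230, 235 and 252 reads in knockout replicates 1, 2 and 3, against 91, 19 and 142 in WT replicates 1, 2 and 3. The level was 37.0 ± 2.14 CPM in knockout cells and 24.8 ± 8.74 CPM in WT cells, a log2 fold change of 0.54 (SE 0.326, edgeR adjusted p 0.431). Every knockout library was above every WT library, but WT replicate 3, at 32.2 CPM, was close to knockout replicate 1, at 34.6 CPM.

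Both tested beta chains overlapped between the genotypes. Lamb1, the beta chain of early laminins, had 178, 54 and 155 reads in knockout replicates 1, 2 and 3, against 74, 20 and 99 in WT replicates 1, 2 and 3, with a log2 fold change of -0.06 (SE 0.424). Lamb2, the beta chain of synaptic and vascular laminins, had 264, 254 and 163 reads, against 86, 108 and 80. In CPM, Lamb2 was highest in WT replicate 2, at 86.3 CPM, and its log2 fold change was -0.24 (SE 0.532). Its direction turned with the setting, and was 0.71 without WT replicate 2. Lamb3 had 0, 1 and 1 reads in the knockout libraries and 0 in the WT libraries. Summed by chain, laminin alpha reads came to 38.1 ± 4.55 CPM in knockout cells and 24.4 ± 10.1 CPM in WT cells, gamma reads to 37.0 ± 2.21 and 24.8 ± 8.74 CPM, and beta reads to 55.0 ± 10.1 and 63.5 ± 33.8 CPM.

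Of the genes for basement membrane proteins that join laminin to other layers, Hspg2 and Agrn had every knockout library above every WT library, while Nid1 and Nid2 overlapped; none of the 4 passed, and the difference between these genes was not tested. Hspg2 (ENSMUSG00000028763.17, chromosome 4, 137468769 to 137570630, plus strand, GRCm38) encodes perlecan, a large heparan sulfate proteoglycan that binds laminin and growth factors. It had 68, 56 and 73 reads in knockout replicates 1, 2 and 3, against 9, 0 and 25 in WT replicates 1, 2 and 3. The level was 10.1 ± 0.833 CPM in knockout cells and 2.78 ± 2.84 CPM in WT cells, a log2 fold change of 1.63 (SE 0.663, edgeR adjusted p 0.277). The 0 in WT replicate 2, the shallowest library, allows up to 2.40 CPM, counting error only, which is still below the knockout libraries. In the authors' deposited table Hspg2 has a log2 fold change of 1.65 and an adjusted p of 0.0887. The log2 fold change was 0.83 with WT replicates 1 and 2 left out. Without WT replicate 3 it was 2.50 (edgeR adjusted p 0.0437), again in the fit where 1526 of all genes passed.

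Agrn (ENSMUSG00000041936.18, chromosome 4, 156165290 to 156197488, minus strand, GRCm38) encodes agrin, a proteoglycan that links laminin to dystroglycan and organises synapses. It was abundant, above 91.2% of tested genes by mean level, with 1112, 1331 and 955 reads in knockout replicates 1, 2 and 3, against 393, 177 and 483 in WT replicates 1, 2 and 3. In CPM this was 167, 219 and 142 in the knockout libraries and 117, 141 and 110 in the WT libraries, so that knockout replicate 3 stood just above WT replicate 2. The log2 fold change was 0.53 (SE 0.265, edgeR adjusted p 0.358). It was 0.68 with WT replicates 1 and 2 left out.

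Nid1 and Nid2 encode the nidogens. Nid1 had 99, 69 and 87 reads in knockout replicates 1, 2 and 3, against 31, 43 and 21 in WT replicates 1, 2 and 3, a log2 fold change of -0.18 (SE 0.622) in which WT replicate 2 was highest at 34.4 CPM. Nid2 had 24, 18 and 33 reads, against 24, 0 and 12, a log2 fold change of 0.07 (SE 0.781). For both, the WT libraries spanned the knockout range.

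Fn1 encodes fibronectin, a matrix glycoprotein of the early embryo and of vessels that is bound by integrins. It had 381, 268 and 125 reads in knockout replicates 1, 2 and 3, against 62, 36 and 40 in WT replicates 1, 2 and 3. In CPM the knockout libraries had 57.3, 44.2 and 18.6 and the WT libraries 18.5, 28.8 and 9.08, so knockout replicate 3 lay within the WT range. The level was 40.1 ± 19.7 CPM in knockout cells and 18.8 ± 9.85 CPM in WT cells, a log2 fold change of 1.15 (SE 0.504, edgeR adjusted p 0.304). It was 2.13 with WT replicates 1 and 2 left out and 0.80 without knockout replicate 1.

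Dag1 (ENSMUSG00000039952.15, chromosome 9, 108204634 to 108263958, minus strand, GRCm38) encodes dystroglycan, the receptor that binds laminin, perlecan and agrin through its sugar chains and whose loss breaks the basement membrane of the developing brain. It was the second most abundant of the 37 genes, with 1896, 2196 and 2084 reads in knockout replicates 1, 2 and 3, against 719, 140 and 1246 in WT replicates 1, 2 and 3. The level was 319 ± 39.1 CPM in knockout cells and 203 ± 86.0 CPM in WT cells, a log2 fold change of 0.65 (SE 0.337, edgeR adjusted p 0.372). Knockout replicate 1, at 285 CPM, was barely above WT replicate 3, at 283 CPM. With WT replicates 1 and 2 left out the log2 fold change was 0.17.

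The most abundant integrin chains differed between the genotypes by less than the spread of the libraries. Itgb1, the beta chain shared by the laminin, collagen and fibronectin receptors, was the most abundant of the 37 genes, above 97.3% of tested genes. It had 2618, 2164 and 2950 reads in knockout replicates 1, 2 and 3, against 816, 381 and 2086 in WT replicates 1, 2 and 3, a log2 fold change of 0.22 (SE 0.300, edgeR adjusted p 0.735). WT replicate 3 was highest, at 473 CPM, and Itgb1 took 83.0% to 92.3% of integrin beta reads in all 6 libraries. Itga6, whose chain pairs with that of Itgb1 as a laminin receptor of neural stem cells, had 1551, 1727 and 1346 reads, against 649, 304 and 928. Its log2 fold change was 0.15 (SE 0.254), and it took 64.1% to 73.9% of integrin alpha reads in knockout libraries and 63.2% to 79.2% in WT libraries. Reads of the commonest laminin receptor pair thus led in both genotypes. Itga7, another laminin-binding alpha chain, had 133, 189 and 258 reads, against 70, 48 and 43, a log2 fold change of 0.44 (SE 0.475).

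Of the integrins that bind the RGD motif of fibronectin and vitronectin, Itgav had 392, 375 and 428 reads in knockout replicates 1, 2 and 3, against 57, 111 and 156 in WT replicates 1, 2 and 3. In CPM the knockout libraries were alike, at 59.0, 61.8 and 63.8, while the WT libraries had 16.96, 88.7 and 35.4, on both sides of them. The log2 fold change was 0.43 (SE 0.489, edgeR adjusted p 0.678), 0.033 without WT replicate 1 and 1.23 without WT replicate 2. With library quality weights in limma voom Itgav passed (log2 fold change 1.46, adjusted p 0.0151), in a fit where 1242 of all genes did. Itgb8, which pairs with the Itgav chain to activate TGF-beta and is known from radial glia, had 58, 60 and 65 reads, against 7, 1 and 50. WT replicate 3, at 11.3 CPM, was above all knockout libraries, and WT replicates 1 and 2 were far below them, at 2.08 and 0.799 CPM. The log2 fold change of 0.83 (SE 0.686) became -0.27 with WT replicates 1 and 2 left out. Without WT replicate 3 it was 2.51 (edgeR adjusted p 0.0271), where 1526 of all genes passed. Itgb5, another partner of the Itgav chain, had 244, 221 and 214 reads, against 156, 52 and 120, a log2 fold change of -0.13 (SE 0.300).

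Itga4, the alpha chain of a fibronectin and VCAM receptor, was the lower gene with the smallest p. It had 42, 8 and 20 reads in knockout replicates 1, 2 and 3, against 27, 7 and 92 in WT replicates 1, 2 and 3. The level was 3.54 ± 2.55 CPM in knockout cells and 11.5 ± 8.21 CPM in WT cells, a log2 fold change of -1.74 (SE 0.664, edgeR adjusted p 0.255). Most of the WT mean came from WT replicate 3, at 20.9 CPM; knockout replicate 1, at 6.32 CPM, was above WT replicate 2, at 5.596 CPM. With WT replicates 1 and 2 left out the log2 fold change was -2.55 and passed (edgeR adjusted p 0.0438), and without WT replicate 3 it was -0.96. The 3′ end of Itga4 overlaps exons of Cerkl on the other strand, and without a stated strand setting reads of the pair cannot be told apart. The same holds for Itga7 with Mettl7b, Lama2 with Gm48084 and Nid2 with Rtraf.

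**Figure D3:**
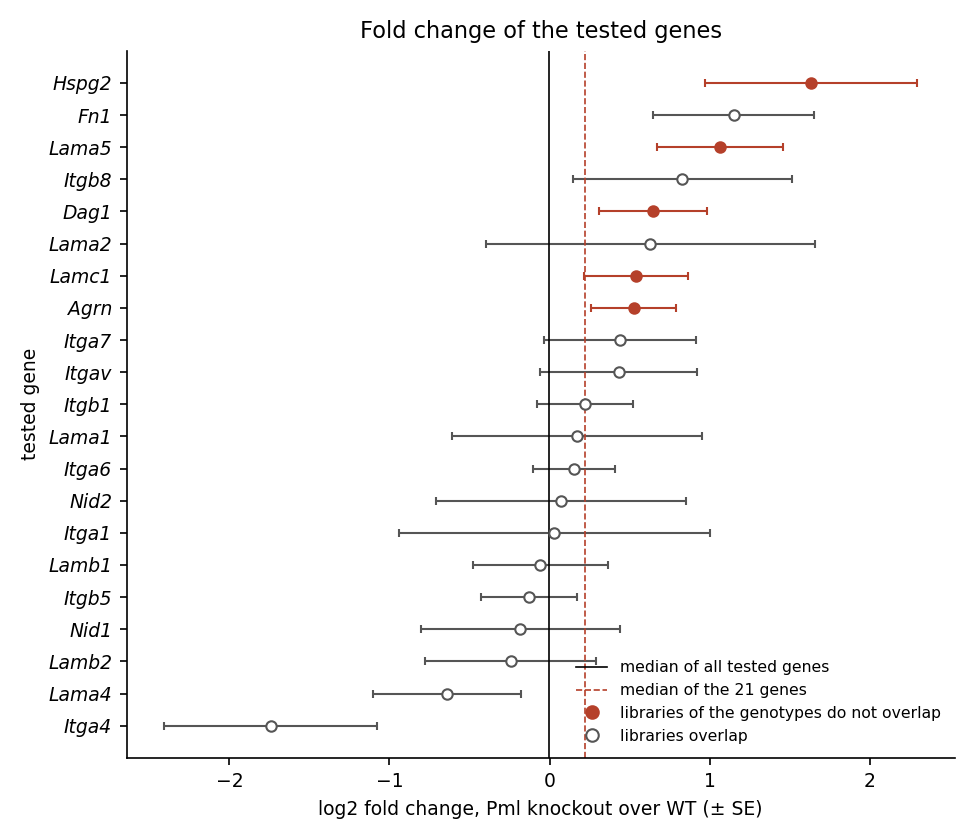
Fitted log2 fold change of each tested gene, Pml knockout over WT, with its standard error, ordered by size. Filled points are the 5 genes whose libraries do not overlap; the median of the 21 genes, 0.22, lies to the right of the median of all tested genes, -0.01.

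Collagen-binding alpha chains were near the detection limit: Itga1 had 4, 12 and 20 reads in knockout replicates 1, 2 and 3, against 3, 0 and 16 in WT replicates 1, 2 and 3. The other 16 genes were under the filter and were not tested. Itgb6 had 0 reads in every library, which allows up to 0.495 CPM in the knockout libraries and up to 2.40 CPM in the shallowest WT library, counting error only. Itgb3 encodes the beta chain of platelets and vessels. It had 8, 10 and 6 reads in the knockout libraries, against 1, 0 and 0 in the WT libraries. Its CPM values did not overlap, but the 0 in WT replicate 2 allows up to 2.40 CPM, counting error only. That limit is above all knockout libraries, so the counts cannot show whether Itgb3 was lower in WT replicate 2. In the authors' deposited table the log2 fold change of Itgb3 is 3.22, with an adjusted p of 0.141. Itga2, Itga9, Itga8 and Itga5 had 32, 29, 21 and 23 reads over all libraries, and Itga10 and Itga3 had 15 and 11. Itga11, Itgb2, Itgb4, Itgb7, Lama3, Lamb3 and Lamc3 had between 1 and 11 reads in all. Itga6 and Itgb1 had the most integrin alpha and beta reads in all 6 libraries. Itga7 took 6.14% to 12.3% of alpha reads in knockout libraries and 3.45% to 9.98% in WT libraries; in WT replicate 3 it took 3.45%, below Itga4 at 7.38%.

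As a group, 15 of the 21 tested genes had a higher fitted level in the knockout (background 49.7%) and 6 a lower one (background 50.3%), with a median log2 fold change of 0.22, against -0.01 for all tested genes. These genes have long transcripts, with a median of 7054 bases for the longest annotated transcript, against 3534 for all tested genes. Across all tested genes the fold change moved with that length: the median log2 fold change was -0.27 in the shortest of 4 length classes of equal size, -0.07 and 0.04 in the middle classes and 0.23 in the longest class, from 5013 bases. In the longest class 65.4% of 2816 genes were higher in the knockout, beside 11 of the 16 members there (68.8%), whose median was 0.48. In that class 18.5% of genes had non-overlapping libraries in the higher direction, beside 5 of 16 members, and 10.6% had an unadjusted p under 0.05 in that direction, beside 3 of 16. The count of higher genes was thus near that of other long transcripts. The median and both other shares were larger among these 16 members, a difference that was not tested. When the trends with length and GC content were taken out of every library, an alternative chosen after seeing the data, the median of the members was 0.14, while Hspg2 stood at 1.60, Fn1 at 1.16, Lama5 at 1.07, Dag1 at 0.63, Agrn at 0.59 and Lamc1 at 0.48 on the log2 scale.

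**Figure D4:**
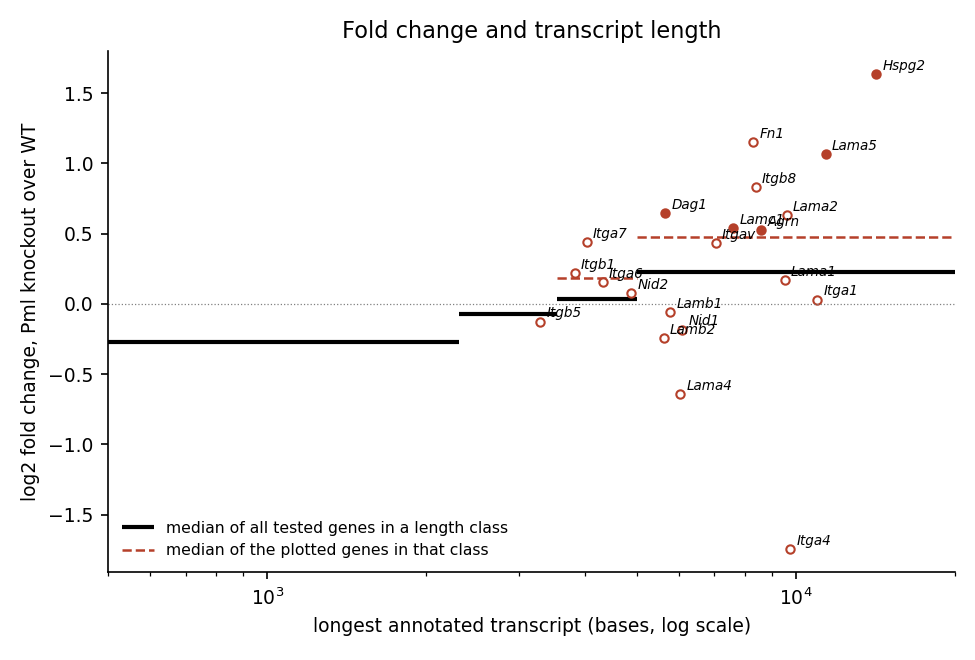
Fitted log2 fold change, Pml knockout over WT, of the 21 tested genes against the length of their longest annotated transcript in bases (log scale), with black bars at the median of all tested genes in each length class and dashed lines at the median of the plotted genes there; the outer bars are cut at the edges of the plot. The bars climb from -0.27 to 0.23, and 16 of the 21 genes lie in the longest class.

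Leaving out WT libraries moved the leading genes in different ways. Without WT replicate 3, 3 members passed by edgeR: Lama5, Hspg2 and Itgb8, all higher, while 1526 of all tested genes passed. That library resembled the knockout libraries most in its pre-ribosomal and hepatocyte shares. Against the 21 members and 11317 genes tested with all libraries, members passed in that fit about as often as genes in general. With WT replicates 1 and 2 left out instead, Itga4 was the 1 member that passed, lower, and 142 of all genes did. The single remaining WT library in that fit is assumed to vary like the knockout libraries. Lama5, Hspg2, Agrn, Dag1, Lamc1 and Fn1 stayed on the higher side, and Itga4 on the lower side, in every alternative run. The part that the differences between WT libraries have in these results was not tested.

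**Figure D5:**
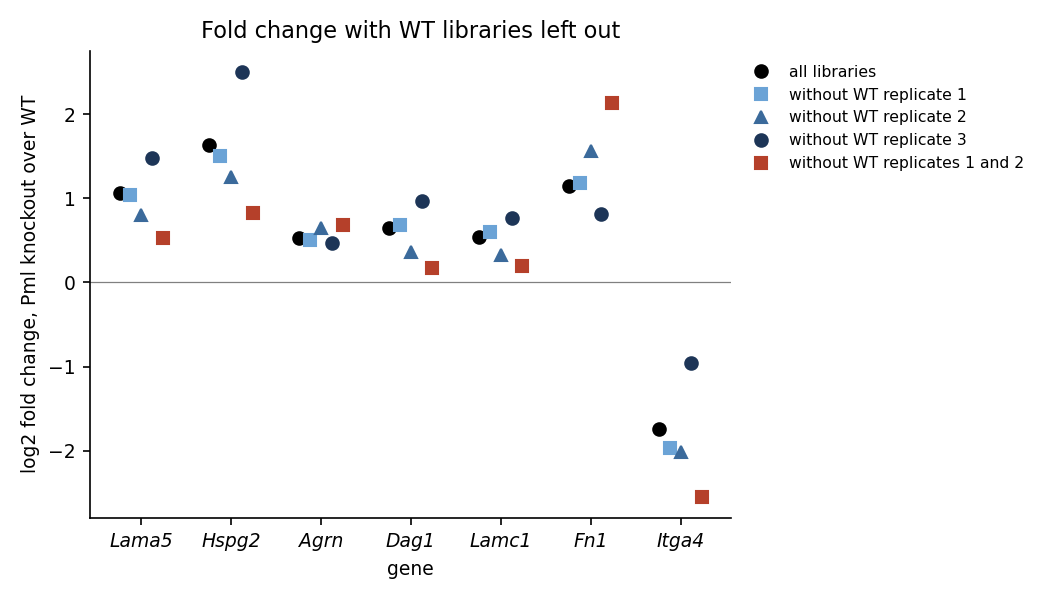
Log2 fold change, Pml knockout over WT, of 7 genes with all libraries and with WT libraries left out singly or with WT replicates 1 and 2 out together. Dag1, Lamc1, Lama5 and Hspg2 are lower against WT replicate 3 alone (0.17, 0.19, 0.53 and 0.83), while Agrn and Fn1 are higher (0.68 and 2.13).

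Other cell types that make basement membrane were looked for with marker lists. Endothelial markers, 10 in the table, summed to 11.5 to 18.1 CPM in knockout libraries and 5.22 to 13.4 CPM in WT libraries, most of it from Flt1 and Kdr, and Cdh5, Tek, Cldn5, Erg and Emcn had 0 reads in every library. Mural cell markers, 10 in the table, summed to 84.4 to 119 CPM in knockout libraries and 54.4 to 94.4 CPM in WT libraries, but Kcnj8 and Anpep had 0 reads and most of the sum came from Cspg4 and Notch3, which neural progenitors also express. The 10 fibroblast and meningeal markers summed to 54.0 to 73.6 CPM in knockout libraries and 53.9 to 78.3 CPM in WT libraries, with Lum and Foxc2 at 0 reads. Pdgfra, also on the oligodendrocyte lineage list, gave 33.6 to 59.9 CPM of this in knockout libraries. In WT libraries it gave 24.4 to 48.8 CPM. Col1a1, Col1a2, Col3a1, Dcn and Postn had 44, 6, 10, 21 and 3 reads over all libraries, and Foxc1 and Fbln1 had 302 and 170. Macrophage markers, 12 in the table, summed to 0.746 to 3.46 CPM in knockout libraries and 3.27 to 34.4 CPM in WT libraries, the highest in WT replicate 2. Endothelial markers were thus mixed, with Cdh5, Cldn5, Tek, Erg and Emcn at 0 in both genotypes. Flt1, Kdr, Esam, Pecam1 and Tie1 had 259, 64, 24, 10 and 6 reads over all libraries. Whether a few endothelial cells were present was not tested.

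Among 19 tested genes of other basement membrane proteins, 12 had a higher (background 49.7%) and 7 a lower fitted level (background 50.3%). Their median was 0.27 on the log2 scale, and 0 passed. At an unadjusted p under 0.05 there were 5 higher (26.3%, beside a background of 6.70%) and 0 lower, and 13 of the 19 lie in the longest length class. They were Col4a6 and Col4a5, chains of basement membrane collagen, Fras1 and Frem2, which join embryonic epithelia to their basement membrane, and Ltbp3, which binds latent TGF-beta. Fras1 had 80, 42 and 41 reads in knockout replicates 1, 2 and 3, against 8, 1 and 12 in WT replicates 1, 2 and 3. Frem2 had 29, 36 and 43 reads, against 6, 0 and 4. For both genes every knockout library was above every WT library, with log2 fold changes of 1.93 (SE 0.568) and 2.37 (SE 0.714), and edgeR adjusted p of 0.220 for each.

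Inside the cell, 35 tested genes of focal adhesions, the complexes that tie integrins to actin, were split: 18 were higher and 17 lower, and the median was 0.04 on the log2 scale. Here 0 passed. At an unadjusted p under 0.05, 2 were higher (5.71%, background 6.70%) and 3 lower (8.57%, background 9.19%), shares no larger than over all genes, so the values that follow only describe these 5 genes. Fermt2, the kindlin that activates integrins, had 275 ± 62.7 CPM in knockout cells and 117 ± 47.8 CPM in WT cells, and the scaffold Bcar1 had 47.5 ± 4.63 and 21.7 ± 6.14 CPM. Tln1, a talin that binds integrin beta tails, had 87.4 ± 4.72 CPM in knockout cells and 170 ± 69.1 CPM in WT cells, Zyx (zyxin) 19.0 ± 1.64 and 33.8 ± 11.6 CPM, and Flna (filamin) 49.6 ± 2.70 and 88.9 ± 42.3 CPM. These values are means and SD over 3 libraries in each genotype. For Flna the libraries overlapped, with WT replicate 3 at 49.3 CPM and the knockout libraries at 48.1, 52.8 and 48.0 CPM.

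The dystrophin complex joins dystroglycan to the cell's interior, and a set of enzymes builds its sugar chains. Of 9 tested genes of the dystrophin complex, 7 were higher (background 49.7%) and 2 lower (median 0.37 on the log2 scale). At an unadjusted p under 0.05, 2 were higher (22.2%, background 6.70%) and 0 lower (background 9.19%). Sgcb, a sarcoglycan, had 36.9 ± 5.07 CPM in knockout cells and 23.8 ± 1.19 CPM in WT cells, and Sgce, another, 18.7 ± 6.63 and 5.57 ± 5.80 CPM (SD, n = 3 each). Of 16 tested genes for the sugar chains, 4 were higher and 12 lower (background 50.3%), with a median of -0.27. At an unadjusted p under 0.05, 0 were higher (background 6.70%) and 1 was lower (6.25%, background 9.19%). The lower gene was Dpm3, a small subunit of the dolichol-phosphate-mannose synthase. The median transcript length was 4512 bases in the complex, with 4 of 9 genes in the longest length class, and 3340 bases for the sugar chain genes, with 2 of 15; the part of length, and the difference between these lists, was not tested. Other receptors for laminin and fibronectin, 14 tested, were 9 higher and 5 lower, with a median of 0.21. At an unadjusted p under 0.05, Cd9 and Sdc2 were higher (14.3%, background 6.70%) and Rpsa was lower (7.14%, background 9.19%). Rpsa is a ribosomal protein also described as a laminin receptor and uncertain because of its many processed copies. In none of these related lists did a gene pass at an adjusted p under 0.05 by edgeR.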

How the data were processed

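The series measured 3′ tag RNA-seq (QuantSeq forward) in 3 Pml knockout and 3 WT neurosphere samples, all with 1 batch date in the labels. The authors deposited whole-number read counts per gene symbol; per the submitters' processing notes the tools were HISAT2, HTSeq, FastQC and edgeR and the build mm10. For versions, annotation and strand option the sources used here give nothing. Log2 fold changes, p-values and adjusted p-values that the authors deposited were quoted only where named as theirs, and their normalized scores, also deposited, were not used. Library columns were matched to samples by library name.

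The test was edgeR 4.0.16 under R 4.3.3: default filter (count minimum 10, total 15), TMM factors, robust quasi-likelihood F test of knockout against WT, Benjamini-Hochberg over 11317 genes, threshold 0.05. Standard errors are the log2 fold change over the root of F. Levels are CPM with TMM factors; a count of 0 allows up to 3 counts; shares carry exact Clopper-Pearson intervals at 95%. Alternatives used DESeq2 1.42.0, limma 3.58.1 and the settings in the closing section, and the fit was tested on simulated data. Transcript lengths and coordinates are from GENCODE M21 (GRCm38, the assembly mm10 names), matched for 99.6% of tested genes. The members and lists were chosen with earlier results of these data known. The values of 1 untested member are not reported here. Named in full were Pml, the 14 tested members with the smallest p, the 10 with the highest level, and up to 4 genes per related list with the smallest p, of which the text gives some; others were named after their values were seen. All pairs of libraries differed by more than sampling noise.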

Additional observations from a re-analysis of the deposited data

How the results depend on the processing

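Over all genes 1 passed. The number was 0 with library totals, DESeq2's size factors in edgeR, a minimum of 5 CPM, limma voom and without the Rn45s row, 3 with no count filter, 328 by DESeq2, 358 by edgeR's exact test, 1242 with voom quality weights and 142 without WT replicates 1 and 2 together; single libraries left out gave 0 to 1526. Of the members 0 passed, except 1 (Itgav) with quality weights, 1 (Itga4) without WT replicates 1 and 2, and 0 to 3 with single libraries left out. With the replicate number as a block 2 genes and 0 members passed, and the members' median was 0.48. Deviations from the group means correlated at -0.00254, 0.0667 and 0.188 in same-numbered libraries, and at -0.181 to 0.0871 in other pairs. The labels do not say whether the numbers pair samples, and 3 libraries per group are too few for these correlations to decide it.

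The median of the members, 0.22, was 0.62 with library totals (where all genes shifted to 0.43), 0.43 with a minimum of 5 CPM, 0.53 by voom, 0.53 with quality weights, and 0.060 to 0.47 with single libraries left out. Higher members numbered 23 of 35 with no filter and 13 to 16 with single libraries left out. Members without overlap, 5, were 9 with library totals, 3 with DESeq2's size factors and 5 to 8 with single libraries left out. In the lower direction, 0 in the full set, they were 0 to 1 with single libraries left out. For these counts of higher members and of members without overlap, shares over all genes in the same settings were not computed. They therefore show only how far the members' numbers moved. Reversed were Lamb2 with library totals (0.33), voom (0.24), the replicate block (0.00736), quality weights (0.24), trends removed (0.064), without WT replicate 2 (0.71) and without WT replicates 1 and 2 (0.95). So were Itgb5 with library totals (0.38), trends removed (0.16), without WT replicate 1 (single libraries left out gave -0.32 to 0.060) and without WT replicates 1 and 2 (0.36), and in that last fit Itgb1 (-0.26), Itgb8 (-0.27) and Lama2 (-0.60). The cause was not tested. Over all alternatives the adjusted p was 0.0346 to 0.714 for Lama5, 0.0437 to 0.714 for Hspg2, 0.0438 to 0.714 for Itga4, 0.0151 to 0.978 for Itgav and 0.0271 to 0.823 for Itgb8. Depth limits most the 16 untested members and WT replicate 2.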
